A study of Mus musculus with 18 samples.

Results

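Efhd1, Slc47a2, Rnf144b and Cerk are 4 genes of 57714 symbols measured in mouse testis and in isolated spermatocytes with and without Zfp541. They were chosen by their measured values at P18 (postnatal day 18). In KO spermatocytes their RNA was at between 2.71% and 16.2% of the Het mean. In KO whole testis it was nearer to the Het level, at between 64.3% and 101% of the Het mean. Each of the 4 symbols was found in all 18 libraries. Because the P18 values chose them, these values are described here without a test, and the comparison at P14, whose libraries the choice did not use, is the one that was tested.

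Poly(A) RNA was sequenced in 6 groups of 3 libraries from male C57BL/6J mice. The groups were Zfp541-/- (KO) and Zfp541+/- (Het) testis at P14, labelled as testicular cells, the same pair at P18, and KO and Het spermatocytes at P18. The Het animals carry 1 disrupted Zfp541 allele, so no group is wild type, and how the spermatocytes were isolated is not given in the sources used here. The design calls the libraries biological replicates without saying that each came from a separate animal, so that the tests measure the spread between these libraries.

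The 4 genes act in different parts of the cell. Efhd1 encodes a calcium-binding EF-hand protein of mitochondria. Slc47a2 encodes a multidrug and toxin extrusion transporter, a family that exports organic cations in exchange for protons. Rnf144b encodes a RING-between-RING ubiquitin ligase, described in human cells as inducible by p53. Cerk encodes ceramide kinase, which phosphorylates the sphingolipid ceramide to ceramide 1-phosphate. ZFP541 is a zinc-finger protein of meiotic male germ cells. In the first wave of mouse spermatogenesis the testis at P14 holds germ cells up to early pachytene, and at P18 up to late pachytene and diplotene, together with Sertoli cells, which nurse the germ cells, and the cells of the interstitium.

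On GRCm38, Efhd1 (ENSMUSG00000026255.15) lies on chromosome 1 from 87264363 to 87310839 on the plus strand. Slc47a2 (ENSMUSG00000069855.9) lies on chromosome 11 from 61301631 to 61342860 on the minus strand. Rnf144b (ENSMUSG00000038068.15) lies on chromosome 13 from 47122656 to 47247991 on the plus strand, and Cerk (ENSMUSG00000035891.16) on chromosome 15 from 86139128 to 86186141 on the minus strand. No 50-mer of the annotated transcripts of Slc47a2 or Rnf144b was found in another gene. In Cerk 0.21% of the 50-mers were shared with Gm15569, with which it overlaps by 57 exon bases. In Efhd1 9.81% were shared with Efhd1os, a gene annotated on the opposite strand whose exons cover 254 bases of Efhd1 exons. The counting is not stated to use strand, so reads of Efhd1 and Efhd1os cannot be told apart there.

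Since the 4 genes were chosen as moving together in spermatocytes, the bases just before their starts are shown for comparison. All 4 matched the RefSeq table of promoters (GRCm38.p6), Rnf144b with 2 starts, giving 5 starts. The sequences run 5′ to 3′ on the gene's strand through the base before the RefSeq start, and for Rnf144b they end before the gene's first annotated base. Capitals mark the letters AACNG or its reverse complement, the core of the motif that MYB proteins bind.
Efhd1 (chr1:87264203-87264352, plus strand): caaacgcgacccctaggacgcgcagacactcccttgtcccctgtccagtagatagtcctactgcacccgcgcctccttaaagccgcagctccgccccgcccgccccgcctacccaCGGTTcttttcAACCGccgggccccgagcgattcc
Slc47a2 (chr11:61342861-61343010, minus strand): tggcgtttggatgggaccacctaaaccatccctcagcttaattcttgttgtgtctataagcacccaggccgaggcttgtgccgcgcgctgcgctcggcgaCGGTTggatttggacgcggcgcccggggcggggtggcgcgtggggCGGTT
Rnf144b (chr13:47122570-47122655, plus strand): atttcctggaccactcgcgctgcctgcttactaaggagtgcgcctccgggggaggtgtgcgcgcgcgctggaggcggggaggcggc
Cerk (chr15:86186142-86186291, minus strand): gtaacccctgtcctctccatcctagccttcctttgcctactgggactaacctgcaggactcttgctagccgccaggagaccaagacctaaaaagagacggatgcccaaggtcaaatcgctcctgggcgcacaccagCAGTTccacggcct
In the 150 bases before the start, AACNG occurred on either strand in 4 of 5 starts and in at least 1 start of each of the 4 genes, against 55.1% of 32843 promoter windows of that length. The occurrence in Rnf144b lay downstream of the stretch printed above. TGACG, the core of the cAMP response element, occurred in 1 of the 5 starts, the upstream start of Rnf144b, against 13.3% of all windows. GTTGCC, bound by RFX factors, occurred in 0 of the 5, against 6.6%, and the E-box CACGTG in 0 of the 5, against 4.3%. The 3 other motifs do not contain AACNG. The G and C content of the windows was 66.7% for Efhd1, 64.7% for Slc47a2, 70.7% and 61.3% for the 2 starts of Rnf144b and 57.3% for Cerk, against a median of 54% over all windows. A match in these letters is a description of sequence only.

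The levels below are in RPKM, which divides the reads of a gene by its length and by the depth of the library, or for P18 testis in FPKM, which does the same with fragments, after all 18 libraries were rescaled to each other by trimmed means of M values. The libraries rested on 9.26 to 21.12 M reads (megareads), read back from the steps of the deposited values, and 1 read on a gene of 1 kb was worth 0.0473 to 0.108. Log2 differences (KO minus Het, with SE) come from a limma fit of the 6 libraries of each comparison on log2 of the level plus 0.5. They understate differences of genes with low levels. Zfp541 itself averaged 4.36 ± 0.983 in KO and 9.24 ± 1.04 in Het testis at P14, 9.34 ± 0.955 in KO and 23.2 ± 4.30 in Het testis at P18, and 13.2 ± 0.904 in KO and 42.4 ± 14.6 in Het spermatocytes (SD, n = 3 each). No KO library reached a Het library in any of the 3 sets.

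In P18 spermatocytes each of the 4 genes stood at a small share of its Het level in KO. Efhd1 stood at 1.40, 2.18 and 3.54 in the 3 KO libraries, against 65.1, 56.7 and 141.3 in the 3 Het libraries. The KO mean was 2.71% of the Het mean, and the log2 difference was −4.97 ± 0.36. It was the largest of the 4, at rank 91 from the most negative among 15926 genes in the fit.

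Slc47a2 stood at 1.13, 2.55 and 4.20 in KO spermatocytes, against 35.4, 26.8 and 55.9 in Het spermatocytes. The KO mean was 6.67% of the Het mean, with a log2 difference of −3.82 ± 0.38 at rank 271. As with Efhd1, KO replicate 3 was the highest KO library and Het replicate 3 the highest Het library.

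Rnf144b stood at 0.569, 0.607 and 0.807 in KO spermatocytes, against 7.96, 7.12 and 16.8 in Het spermatocytes. These KO values rested on 34, 33 and 54 reads, against 555, 355 and 1266 reads in Het. The KO mean was 6.22% of the Het mean. The log2 difference of −3.23 ± 0.27 at rank 421 depended on the pseudocount, since the KO level was close to 0.5, and was −3.81 with a pseudocount of 0.1.

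Cerk had the smallest difference of the 4 in spermatocytes. It stood at 1.60, 1.87 and 2.85 in KO spermatocytes, on 93, 99 and 186 reads, against 10.7, 9.12 and 19.1 in Het spermatocytes, on 728, 443 and 1402 reads. The KO mean was 16.2% of the Het mean, with a log2 difference of −2.41 ± 0.26 at rank 781. In none of the 4 genes did the KO and Het libraries overlap. The share of all genes without overlap is not given here, so that nothing is read from this. Because the choice of genes used this contrast, the share of all genes called in it is given as background only and nothing is read from it: limma called 37.8% of 15926 genes at an adjusted p under 0.05, 12.7% higher and 25.1% lower in KO.

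**Figure D1:**
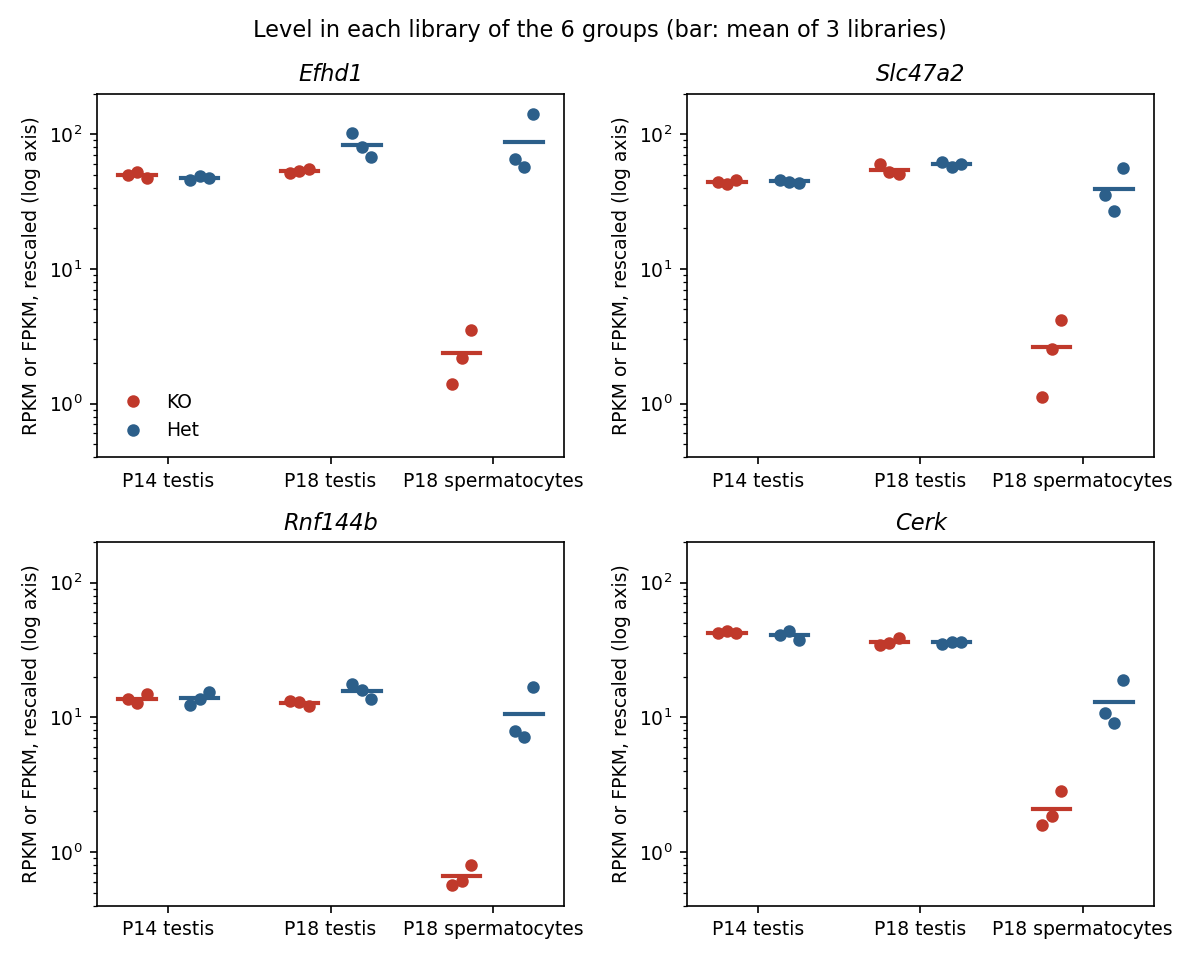
Level of each gene (RPKM or FPKM after rescaling, log axis) in every library of P14 testis, P18 testis and P18 spermatocytes, with KO left of Het; each point is 1 library and each bar the mean of 3. The KO and Het points overlap for all 4 genes in P14 testis and for Slc47a2 and Cerk in P18 testis. In P18 testis the KO points of Efhd1 lie between 51.7 and 55.1 and the Het points between 67.7 and 101.3, and in spermatocytes the KO points of Efhd1 lie between 1.40 and 3.54 and the Het points between 56.7 and 141.3.

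In whole testis at P18 the 4 genes did not behave alike. Cerk stood at 34.2, 35.9 and 38.5 in KO, against 35.1, 36.3 and 36.4 in Het, and the KO libraries spanned the Het libraries. Its log2 difference was 0.04 ± 0.06, and 0.13 on the values as deposited, without rescaling.

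Slc47a2 stood at 59.9, 52.6 and 50.6 in KO testis, against 62.1, 56.9 and 60.3 in Het testis. The groups overlapped, and the log2 difference was −0.11 ± 0.08. The KO mean was 91.0% of the Het mean for Slc47a2 and 101% for Cerk.

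Efhd1 stood at 51.7, 53.1 and 55.1 in KO testis, against 101.3, 79.7 and 67.7 in Het testis. Every KO library was below every Het library, the KO mean was 64.3% of the Het mean and the log2 difference was −0.58 ± 0.13. The 3 KO libraries were close to each other and the Het libraries were spread, with Het replicate 1 the highest. Rnf144b showed the same arrangement at a smaller size, with 13.2, 12.9 and 12.2 in KO testis, against 17.7, 15.9 and 13.7 in Het testis. Its KO mean was 81.0% of the Het mean, and the log2 difference was −0.26 ± 0.09. In P18 testis the KO and Het libraries thus overlapped for Slc47a2 and Cerk but not for Efhd1 and Rnf144b. The share of all genes without overlap is not given here, and the P18 values chose the genes. No conclusion is drawn from this split. As background for this contrast, from which nothing is read for the 4 genes, limma called 23.5% of 18789 genes in P18 testis, 6.51% higher and 17% lower in KO.

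At P14 the KO and Het testis libraries overlapped for each of the 4 genes. Efhd1 stood at 49.9, 52.6 and 47.4 in KO, against 45.5, 48.8 and 46.9 in Het. The log2 difference was 0.07 ± 0.05 (95% interval −0.06 to 0.19, limma adjusted p = 0.776). Cerk stood at 42.0, 43.7 and 42.1 in KO, against 40.6, 43.4 and 37.4 in Het, a difference of 0.05 ± 0.06 (95% interval −0.09 to 0.19, limma adjusted p = 0.837). In both genes the difference was within the spread of the libraries.

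Slc47a2 stood at 44.0, 42.9 and 45.8 in KO testis at P14, against 45.9, 44.3 and 43.1 in Het testis. The difference was −0.03 ± 0.05 (95% interval −0.15 to 0.09, limma adjusted p = 0.914). Rnf144b stood at 13.8, 12.7 and 14.8 in KO, against 12.4, 13.7 and 15.4 in Het, a difference of −0.03 ± 0.09 (95% interval −0.24 to 0.19, limma adjusted p = 0.963). Thus 0 of the 4 genes passed the test at P14, where 0.164% of 17704 genes were called, 0.0113% higher and 0.153% lower in KO, and 0 of the 4 had an unadjusted p under 0.05. With voom on the reads read back, 0 of the 3 genes that could be fitted passed. With so few genes called in all, the count of 0 says little beyond the intervals, whose bounds lie between −0.24 and 0.19. Zfp541 itself did not pass at P14 (−1.03 ± 0.15, limma adjusted p = 0.0786), although its KO libraries lay below its Het libraries. Leaving out KO replicate 3 gave an adjusted p = 0.0379 and voom an adjusted p = 0.00762. Over 13 alternatives its adjusted p ranged between 0.00762 and 0.436.

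**Figure D2:**
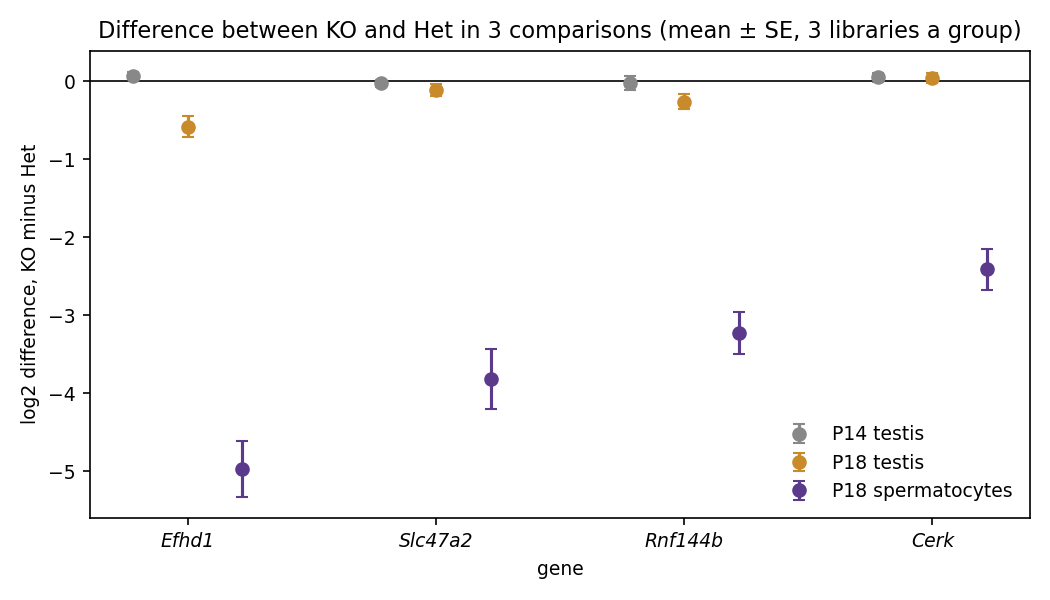
Log2 difference (KO minus Het, log2 of the level plus 0.5) of each gene in P14 testis, P18 testis and P18 spermatocytes; points are means and bars are SE with 3 libraries a group. The P14 values lie between −0.03 and 0.07, the P18 testis values between −0.58 and 0.04 and the spermatocyte values between −4.97 and −2.41.

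The order of the 6 groups differed among the genes. Libraries of different sets were normalised separately by the authors, in RPKM or FPKM, so that these orders are descriptions. Efhd1 was highest in P18 Het spermatocytes (87.7 ± 46.6) and P18 Het testis (82.9 ± 17.0), whose libraries overlapped. P18 KO testis (53.3 ± 1.70), P14 KO testis (49.98 ± 2.61) and P14 Het testis (47.1 ± 1.64) followed, each overlapping the next, and KO spermatocytes were lowest (2.37 ± 1.08).

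Slc47a2 was highest in P18 Het testis (59.7 ± 2.64) and P18 KO testis (54.4 ± 4.85), which overlapped. P14 Het testis (44.5 ± 1.40), P14 KO testis (44.2 ± 1.46) and P18 Het spermatocytes (39.4 ± 15) overlapped as well, the spermatocytes also with P18 KO testis, and KO spermatocytes were again lowest (2.63 ± 1.54). For Rnf144b the order at P18 was Het testis (15.8 ± 2.00), KO testis (12.8 ± 0.548), Het spermatocytes (10.6 ± 5.35) and KO spermatocytes (0.661 ± 0.128), of which Het spermatocytes overlapped both testis groups. Its P14 level (13.8 ± 1.06 in KO and 13.9 ± 1.49 in Het) was not set against P18, since its P14 values did not give whole reads with the gene length of the annotation used and the gene model may differ between the ages.

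For Cerk, P14 KO testis (42.6 ± 0.943), P14 Het testis (40.5 ± 3.01), P18 KO testis (36.2 ± 2.19) and P18 Het testis (35.9 ± 0.741) each overlapped the next. Het spermatocytes (13.0 ± 5.34) lay below all testis libraries and above KO spermatocytes (2.11 ± 0.660). The ratio of P18 to P14 testis was 0.85 in KO and 0.888 in Het for Cerk, 1.23 in KO and 1.34 in Het for Slc47a2, and 1.07 in KO and 1.76 in Het for Efhd1. On the values as deposited the Cerk ratio was 1.05 in KO and 0.995 in Het, so that no direction with age was shown for Cerk, and the others were 1.51 in KO and 1.5 in Het for Slc47a2 and 1.31 in KO and 1.96 in Het for Efhd1.

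Spermatocytes were also set against testis of the same genotype. In KO the level in spermatocytes was 4.45% of that in testis for Efhd1, 4.83% for Slc47a2, 5.18% for Rnf144b and 5.82% for Cerk. In Het the same ratio was 106% for Efhd1, 65.9% for Slc47a2, 67.4% for Rnf144b and 36.1% for Cerk. These ratios come from the P18 values that chose the genes, so that low ratios in KO follow from the choice. The Het ratios differed by gene, with Cerk the lowest.

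Markers of the cell types in the testis were read in the same way, for markers averaging at least 1 in both KO and Het testis at P18. This kept 10 of the 16 late pachytene and sperm markers. It left out markers low in KO testis, such as Adam3 (0.518) and Hspb9 (0.903), so that the medians and ranges describe the markers kept. In KO the median ratio was 3.87% over 19 Sertoli markers, 0.82% over 10 Leydig markers and 18.9% over 9 macrophage markers. It was 94.6% over 8 peritubular myoid markers, 183% over 14 meiotic prophase markers, 221% over 12 spermatogonial markers and 64.7% over 10 late pachytene and sperm markers. In Het the medians were 6.51% for Sertoli markers, 0.672% for Leydig markers, 12.5% for macrophage markers, 105% for myoid markers, 166% for meiotic prophase markers, 153% for spermatogonial markers and 191% for late pachytene and sperm markers. Over 3 endothelial markers the median was 16% in KO and 25.6% in Het. By these markers both spermatocyte preparations were low in Sertoli and Leydig RNA and high in meiotic prophase RNA, while myoid markers were about as high in them as in testis. In KO spermatocytes the median of the spermatogonial markers was above that of the meiotic prophase markers. In KO the median ratio of the late pachytene and sperm markers was 64.7%, over a range of 46.4% to 158%. Their sum over the 16 listed genes was 297, 327 and 381 in KO spermatocytes, against 288, 291 and 283 in KO testis. The KO ratios of the 4 genes lay within the ranges of the Sertoli markers (1.73% to 229%) and the Leydig markers (0.133% to 59.1%). Those of Rnf144b and Cerk also lay within the range of the macrophage markers (4.85% to 79.2%). Without Dmrt1 and Tjp1, an alternative added after seeing the data, the Sertoli range was 1.73% to 18.7%. Of the Leydig markers only Fdx1 (59.1%) and Star (32.7%) lay above the 4 genes. Such wide ranges cannot place the genes in a cell type, and nothing is concluded from them. In which cells of the testis the 4 genes are expressed was not tested.

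**Figure D3:**
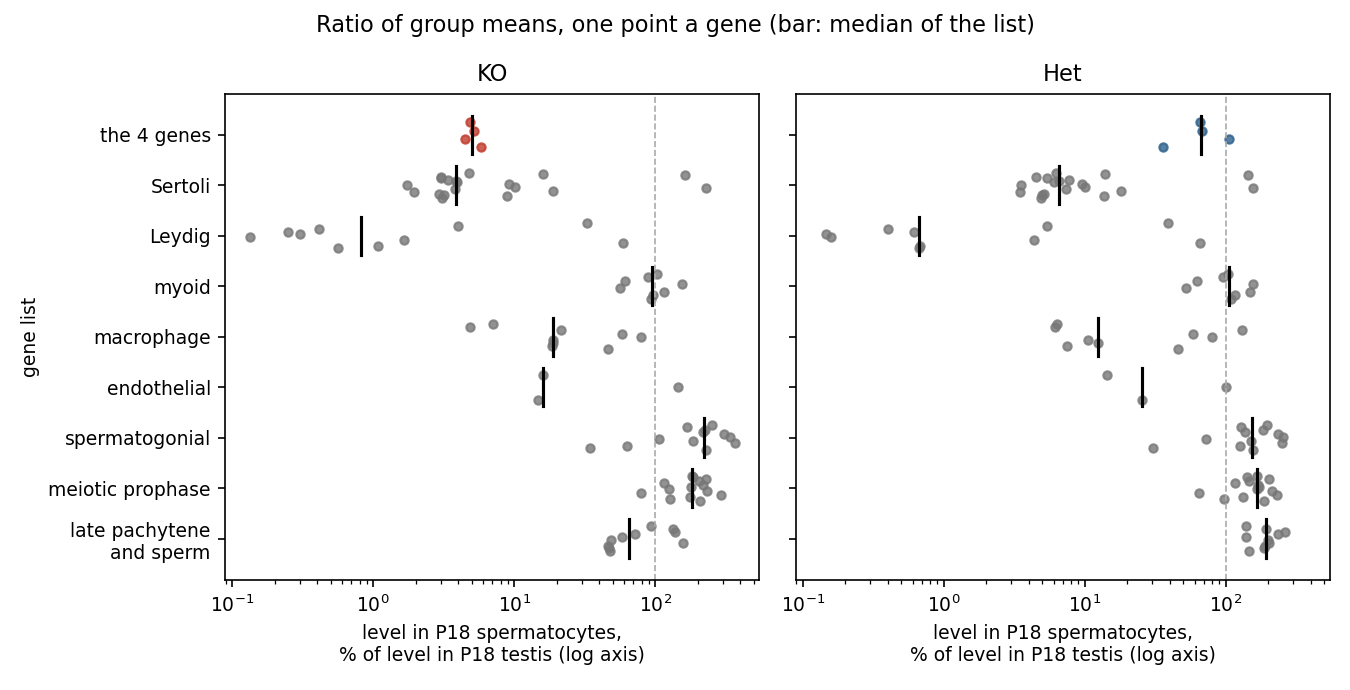
Level in P18 spermatocytes as a percent of the level in P18 testis (ratio of group means, log axis) in KO (left panel) and Het (right panel); each point is a gene, coloured for the 4 genes and grey for cell type markers, bars are list medians and the dashed line marks 100%. Only genes averaging at least 1 in both KO and Het P18 testis are shown. In KO the 4 genes, chosen by these values, lie between 4.45% and 5.82%, between the Sertoli median of 3.87% and the macrophage median of 18.9%, and in Het between 36.1% and 106%.

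Levels of cell type markers also differed between KO and Het, and fewer cells of a type and less RNA per cell cannot be told apart in bulk RNA. Late pachytene and sperm markers include the sperm surface protein gene Adam3 and the testis isozyme gene Ldhc. They were lower in KO in 15 of 15 genes tested in P18 testis and in 15 of 15 in spermatocytes. Of all genes, 17% were called lower in P18 testis and 25.1% in spermatocytes. A gene that met the filter of at least 1 in at least 3 libraries through Het alone could only come out lower in KO. Adam3 was such a gene at P18 (at most 0.524 in KO spermatocytes and 0.620 in KO testis), and Crisp2 at P14 (at most 0.466 in KO). How many of these markers entered in this way is not given, and the same filter held for all genes. The median log2 difference of these markers was −4.16 in testis, against 0.04 for all genes, and −5.26 in spermatocytes, against 0.00 for all genes. Summed over the 16 listed genes, their level was 297, 327 and 381 in KO spermatocytes, against 2536, 2025 and 4844 in Het spermatocytes. The Het order, with replicate 3 highest and replicate 2 lowest, was that of each of the 4 genes. In P18 testis the sum was 288, 291 and 283 in KO, against 2347, 1555 and 1064 in Het, the same Het order as for Efhd1 and Rnf144b but not for Slc47a2 or Cerk. At P14 the groups overlapped for the 4 genes, while 5 of 9 of these markers were already lower in KO, against 0.153% of all genes. The median was −1.79, against 0.00 for all genes, with a summed level of 78.4 to 121 in KO and 184 to 241 in Het. The count of 5 was 0 without Het replicate 1 or 3 or KO replicate 1 or 2, 2 without Het replicate 2 and 7 without KO replicate 3. It was 3 with voom and 0 with no filter on low values. The part of the cell makeup of the samples in the differences of the 4 genes was not tested.

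Sertoli markers had smaller differences. In P18 spermatocytes 18 of the 20 were tested, 1 was called higher (Dmrt1) and 0 lower by limma and by voom, with a median log2 difference of −0.37. Dmrt1, at 229% of its testis level in KO spermatocytes, is also on the spermatogonial list, so that its call is counted in both lists. Unadjusted p values under 0.05 gave the same 1 and 0, and without Het replicate 3 1 marker was called lower. Of all genes in this fit, 12.7% were called higher and 25.1% lower. Without Dmrt1 and Tjp1, an alternative added after seeing the data, the summed level of the other 18 was 61.0, 79.8 and 114 in KO spermatocytes, against 115, 110 and 74.2 in Het spermatocytes. Among the KO libraries this is the order of the 4 genes, with replicate 3 highest. Among the Het libraries replicate 3 was lowest in Sertoli markers and highest in each of the 4 genes. The peritubular myoid markers, summed, also had KO replicate 3 highest (97.7, 196 and 338 in KO, against 105, 254 and 229 in Het). So did the KO sums of Leydig (10.7, 11.1 and 11.9), macrophage (17.8, 18.2 and 19.8), endothelial (4.87, 4.72 and 5.27), and late pachytene and sperm markers. Those of spermatogonial and meiotic prophase markers did not. These are ranks only. Relative to KO replicate 1, the rise to KO replicate 3 was larger in these Sertoli and myoid sums than in the Leydig, macrophage and endothelial sums. What set the order of the KO libraries was not tested. In P18 testis 6 of 19 Sertoli markers were called higher and 0 lower, with a median of 0.29, a count that was 0 without Het replicate 2 or any 1 of the KO libraries, 2 without Het replicate 1, 13 without Het replicate 3, 0 with no filter and 14 with voom. Of all genes in P18 testis, 6.51% were called higher and 17% lower. At an unadjusted p under 0.05, 17 of the 19 Sertoli markers were higher and 0 lower. Their summed level there was 2132, 2089 and 2109 in KO, against 1602, 1765 and 1935 in Het.

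Some markers of other cells were higher in KO as well, and the direction differed between lists and sets. In spermatocytes the macrophage sum was lower in KO (17.8 to 19.8, against 22.2 to 29.3), with 1 of 7 called higher and 1 lower. The marker called lower was Fcgr3, at 0.381, 0.680 and 0.637 in KO, against 12.2, 10.3 and 21.0 in Het. The lower macrophage sum in KO spermatocytes rested on Fcgr3, while the median log2 difference of the list was positive (0.56). The Leydig sum was also lower there (10.7 to 11.9, against 13.3 to 16.7). The endothelial sum was higher (4.72 to 5.27, against 3.72 to 3.79). Of its 8 markers only Egfl7 was tested, at 3.41 ± 0.0799 in KO and 2.02 ± 0.127 in Het spermatocytes. Egfl7 made up most of the sum, so that no direction of the endothelial list is read from it. In P18 testis 2 of 10 Leydig, 0 of 8 myoid and 0 of 3 endothelial markers were called higher, and 0 lower. In spermatocytes 6 of 13 spermatogonial markers were called higher and 1 lower (median 0.61), with a summed level of 596 to 664 in KO and 334 to 399 in Het. The higher count was 3 without KO replicate 1 or 2, 4 without Het replicate 1 or KO replicate 3, and 8 with voom. In P18 testis 5 of 12 were called higher and 1 lower (median 0.34), with a summed level of 285 to 317 in KO and 224 to 268 in Het. There the higher count was 0 without KO replicate 2 or 3, 1 without Het replicate 2, 3 without Het replicate 1 or KO replicate 1, 6 without Het replicate 3, 1 with no filter and 8 with voom. Macrophage markers in P18 testis were called higher in 7 of 10 and lower in 1 (median 0.48), with a summed level of 74.9 to 84.3 in KO and 61.9 to 69.9 in Het. That count was 3 without Het replicate 1 or 3 or KO replicate 1, 1 without Het replicate 2 or KO replicate 2 or 3, 2 with no filter and 8 with voom. Of all genes, limma called 12.7% higher and 25.1% lower in spermatocytes and 6.51% higher and 17% lower in P18 testis. The part of these cell types in the differences of the 4 genes was not tested.

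The P18 differences of the 4 genes were set beside those of all genes. The limits used here are the members' own values, so that the counts follow from the choice and describe only where the members stand. Of 15209 genes fitted in both P18 sets, 761 (5%) had a log2 difference in spermatocytes at or below that of Cerk, −2.41. Their median difference in testis was −2.44. Of the 761, 7 (0.92%) had a testis difference no larger than that of Efhd1, 0.58, in either direction. These were the 4 genes, Efhd1os, Dusp15 and Mir1892, which the limits taken from the members set and which carry no test. Efhd1os had −5.21 in spermatocytes and −0.58 in testis, almost the values of Efhd1, with which it shares exon bases. Dusp15, which encodes a dual-specificity phosphatase, had −2.84 and −0.38. Mir1892, a microRNA gene measured here in poly(A) RNA, had −2.87 and 0.07. Just outside were Gm11802 (−2.86 in spermatocytes and −0.61 in testis), Gm32391 (−2.96 and −0.67) and Mir6952 (−2.49 and 0.74). The genes other than the members were chosen after their values were seen.

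**Figure D4:**
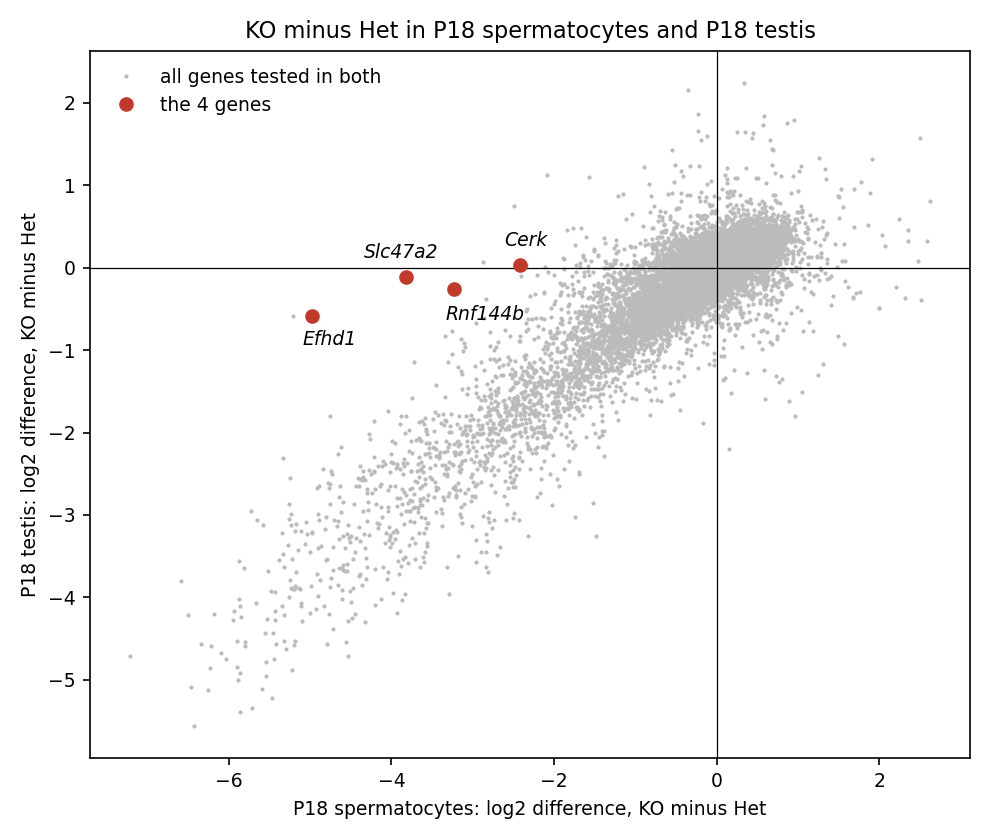
Log2 difference (KO minus Het) in P18 spermatocytes, horizontal axis, and in P18 testis, vertical axis, for 15209 genes fitted in both (grey) and the 4 genes (red). The grey points with differences below −2.41 in spermatocytes have a median of −2.44 in testis, and the 4 genes lie above that median, between −0.58 and 0.04.

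Across the 18 libraries the Pearson correlations on the log2 scale were 0.971 between Efhd1 and Slc47a2, 0.936 between Slc47a2 and Cerk and 0.851 between Efhd1 and Cerk. The genes were chosen for a shared pattern over the P18 groups, so that high correlations follow from the choice, and they describe the groups more than the libraries. Those of Rnf144b are left out, because its P14 and P18 values were not set against each other. Among 13421 protein-coding genes, the patterns most like Efhd1 were those of Erich1 (0.980), Dusp15 (0.977) and Ankrd13a (0.975). Dusp15 averaged 0.935 in KO and 10.1 in Het spermatocytes, and 9.48 in KO and 12.9 in Het testis at P18. The nearest to Slc47a2 were Slc25a21 (0.981), a mitochondrial carrier, Ppp3ca (0.973), the catalytic subunit of calcineurin, and Dusp15 (0.971).

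Cerk was most like Tacc1 (0.995), Paqr8 (0.992), a membrane progestin receptor, and Ak3 (0.992), a mitochondrial adenylate kinase family member. Tacc1 averaged 7.24 in KO and 16.7 in Het spermatocytes, and 28.1 in KO and 29.6 in Het testis at P18. Paqr8 averaged 0.589 in KO and 5.18 in Het spermatocytes, and 10.5 in KO and 11.5 in Het testis. These genes were picked for their likeness, so that their values carry no test.

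The paralogues of the 4 genes did not pass the test in the 3 comparisons as fitted. Efhd2, the paralogue of Efhd1, averaged 5.25 ± 1.70 in KO and 5.30 ± 1.19 in Het spermatocytes (log2 difference −0.13 ± 0.28, limma adjusted p = 0.745). In P18 testis it averaged 72.2 ± 2.71 in KO and 59.8 ± 7.93 in Het, a difference of 0.31 ± 0.11 that did not pass (adjusted p = 0.0889) but passed with voom (adjusted p = 0.0393) and without Het replicate 3 (adjusted p = 0.0283), and at P14 it averaged 68.3 ± 2.27 in KO and 58.6 ± 5.49 in Het (0.20 ± 0.07, adjusted p = 0.471). Rnf144a, the paralogue of Rnf144b, averaged 1.31 ± 0.371 in KO and 1.21 ± 0.312 in Het spermatocytes (0.00 ± 0.26, adjusted p = 0.999). In P18 testis it averaged 11.0 ± 0.825 in KO and 9.35 ± 0.817 in Het (0.25 ± 0.10, adjusted p = 0.108), and at P14 20.5 ± 0.373 in KO and 19.5 ± 1.57 in Het (0.06 ± 0.07, adjusted p = 0.839). Slc47a1 and Cerkl stood below the filter in every set, at group means of at most 0.601 for Slc47a1 and 0.397 for Cerkl. The difference between each gene and its paralogue was not tested.

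Other genes of the same pathways were read from fixed lists, and at P14 limma and voom called 0 of their members in the 4 lists, where at an unadjusted p under 0.05 1 calcium handling gene and 2 sphingolipid genes were higher and 1 sphingolipid gene was lower. For mitochondrial calcium handling, 8 of 17 genes tested in spermatocytes were lower in KO and 2 higher (median −0.15), and in P18 testis 3 of 19 were lower and 1 higher (median 0.05). Letm2, a paralogue of the mitochondrial inner membrane exchanger gene Letm1, fell to 5.54 ± 0.834 in KO spermatocytes, against 12.7 ± 3.74 in Het (−1.19 ± 0.17, limma adjusted p = 0.00224), and to 3.89 ± 0.257 in KO testis, against 8.34 ± 2.07 in Het (−0.97 ± 0.16, adjusted p = 0.0102). Vdac2, a channel of the outer membrane, fell in spermatocytes (25.4 ± 1.04 in KO and 47.1 ± 16.0 in Het, −0.93 ± 0.17, adjusted p = 0.00589).

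Among organic cation and multidrug transporters 2 of 9 tested in spermatocytes were lower and 2 higher in KO, and in P18 testis 2 of 8 were lower and 0 higher, or 1 higher with voom or at an unadjusted p under 0.05. Slc22a16, a carnitine transporter known from the testis, fell the most of this list. It averaged 0.729 ± 0.230 in KO and 38.5 ± 25.9 in Het spermatocytes (−4.88 ± 0.37, limma adjusted p = 0.000192), and 0.957 ± 0.290 in KO and 21.3 ± 12.1 in Het testis (−3.79 ± 0.41, adjusted p = 0.00408).

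Of the RING-between-RING ubiquitin ligases 3 of 13 were lower and 2 higher in KO spermatocytes, and 4 of 13 were lower and 1 higher in P18 testis. Rnf19a fell to 16.7 ± 0.139 in KO spermatocytes, against 35.4 ± 13.3 in Het (−1.10 ± 0.19, limma adjusted p = 0.00464). Rnf31, the catalytic subunit of the linear ubiquitin assembly complex, rose to 14.3 ± 0.836 in KO spermatocytes, against 8.43 ± 0.0884 in Het (0.63 ± 0.10, adjusted p = 0.00327).

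Of the sphingolipid and ceramide genes 7 of 33 tested in spermatocytes were lower and 7 higher in KO (median 0.26, against 0.00 for all genes), and in P18 testis 3 of 35 were lower and 5 higher (median 0.11, against 0.04 for all genes). Cers3, the ceramide synthase of very long acyl chains and so upstream of Cerk, fell to 19.3 ± 3.62 in KO spermatocytes, against 77.8 ± 28.9 in Het (−2.03 ± 0.22, limma adjusted p = 0.000718). It fell in P18 testis as well (15.4 ± 0.388 in KO and 51.0 ± 13.2 in Het, −1.64 ± 0.17, adjusted p = 0.00384). Cptp, which encodes the transfer protein of ceramide 1-phosphate, the product of ceramide kinase, fell to 3.58 ± 0.616 in KO spermatocytes, against 18.9 ± 8.73 in Het (−2.27 ± 0.26, adjusted p = 0.000854). Ugt8a, which galactosylates ceramide, rose in P18 testis (9.49 ± 0.294 in KO and 6.54 ± 0.284 in Het, 0.54 ± 0.07, adjusted p = 0.00514). Many of these list counts were smaller when a library was left out: without Het replicate 2, 0 ubiquitin ligases and 1 gene each of the 3 other lists were lower in P18 testis, and without KO replicate 3, 0 sphingolipid genes were higher in spermatocytes. The genes given here with values kept their call under every alternative that could be fitted for them. Read against the shares of all genes called, 12.7% higher and 25.1% lower in spermatocytes and 6.51% higher and 17% lower in testis, the counts of these 4 lists are given as descriptions and nothing particular to a list is drawn from them.

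For Efhd1 the overlap with Efhd1os bears on its values. Efhd1os averaged 1.85 ± 0.570 in KO and 87.5 ± 46.8 in Het spermatocytes, 73.1 ± 9.96 in KO and 112.5 ± 18.6 in Het testis at P18, and 43.3 ± 4.62 in KO and 39.0 ± 4.39 in Het testis at P14. Its mean was within 1 SD of that of Efhd1 in both spermatocyte groups, and in P18 KO testis its libraries lay above those of Efhd1. Which of the overlapping genes gave rise to the shared reads cannot be told apart without strand. The stretch shared with Efhd1os is 254 of the 2125 exon bases of Efhd1.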

How the data were processed

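The authors deposited 1 table per library with a gene symbol and RPKM (P14 testis, P18 spermatocytes) or FPKM (P18 testis), per the file headers. Per the submitters' processing notes, the tools were STAR 2.6.1a, CASAVA 1.9, edgeR 3.28.1 and featureCounts and the build GRCm38, with no step or strand setting stated; per the labels' protocols, RNA was extracted with Trizol, and poly(A) selection and library kits were NEBNext. Whole reads were read back from the steps of low values and GENCODE M21 exon lengths: 94.3% to 99.3% of low values came out whole within 0.03 reads, giving totals (M, megareads) of 9.26 to 18.31 M in spermatocytes, 12.81 to 16.95 M for P18 testis and 17.96 to 21.12 M for P14 testis. Intervals for counting error were not computed; the spread between libraries was used. Symbols shared by genes were left out, and 447 older P14 symbols were renamed. No 2 libraries were identical, and no library was left out.

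The deposited RPKM and FPKM values were scaled to each other with the TMM formula (trimmed mean of M values, trims of 30% and 5%) and tested with limma 3.58.1 (R 4.3.3) on log2 of the value plus 0.5, with trend and robust moderation, for genes with at least 1 in at least 3 libraries. Tests were two-sided, with Benjamini-Hochberg adjustment over all genes of a comparison and a threshold of 0.05. The fit was also run on simulated counts with a fixed spread between libraries and no outlying library. That spread was smaller than the spread of the 4 genes in Het spermatocytes. The run therefore does not show how the fit performs at that larger spread. Tables and figures used Python 3.11.15, numpy 2.4.6, pandas 2.3.3 and matplotlib 3.10.9. Alternatives were pseudocounts of 0.1 and 1, no filter, no rescaling, median-of-ratios scaling, a replicate block, voom on the reads read back and leaving out each library. The 4 genes and all lists were chosen with earlier results of these data known. Genes named were the 4 genes, Zfp541, the paralogues, from each list and comparison the 2 largest rises and 2 largest falls at most among genes past the threshold, and the 3 protein-coding genes most correlated with each of the 4 (left out for Rnf144b, whose P14 and P18 values may rest on different gene models); some genes the rule takes are not printed.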

Additional observations from a re-analysis of the deposited data

How the results depend on the processing

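The 4 genes kept the direction of their spermatocyte difference under all alternatives run, with 1 library left out giving −5.25 to −4.63 for Efhd1, −4.16 to −3.42 for Slc47a2, −3.30 to −3.17 for Rnf144b and −2.64 to −2.17 for Cerk. Rnf144b there was −3.81 with a pseudocount of 0.1, −2.77 with a pseudocount of 1 and −4.02 with voom on the reads read back. In P18 testis the ranges without 1 library were −0.73 to −0.45 for Efhd1, −0.37 to −0.20 for Rnf144b, −0.18 to −0.06 for Slc47a2 and −0.01 to 0.08 for Cerk, and Cerk was 0.13 on the values as deposited. At P14 the ranges were 0.04 to 0.10 for Efhd1, 0.003 to 0.11 for Cerk, −0.053 to 0.017 for Slc47a2 and −0.078 to 0.056 for Rnf144b. Slc47a2 turned positive without Het replicate 1 (0.0166) and without KO replicate 2 (0.0004), and Rnf144b without Het replicate 3 (0.0556) and without KO replicate 2 (0.0354). Efhd2 in spermatocytes turned positive on the values as deposited (0.039) and without KO replicate 1 (0.0916). Rnf144a there turned negative with a pseudocount of 1 (−0.0012), with median-of-ratios scaling (−0.0037) and in 4 of the 6 fits that left out 1 library (−0.0043 to −0.176 without Het replicates 1 and 3, −0.0393 and −0.123 without KO replicates 2 and 3); over all 6 the range was −0.176 to 0.163, and for Efhd2 −0.342 to 0.0916. None of them passed the test in these comparisons under any alternative.

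The mean levels as deposited, which moved by more than 1 SD, were 46.3 in KO and 44.1 in Het P14 testis and 60.7 in KO P18 testis for Efhd1. They were 41.0 in KO and 41.6 in Het P14 testis and 61.9 in KO and 62.6 in Het P18 testis for Slc47a2, 14.5 in KO P18 testis for Rnf144b, and 39.4 in KO P14 testis and 41.2 in KO and 37.7 in Het P18 testis for Cerk.

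Counts over all genes depended on the settings more. At P14, 2 genes were called higher and 27 lower in KO; the higher count was 1 and the lower 17 with a pseudocount of 0.1, the lower count was 2 with no filter and 176 with voom, and without 1 library they were 0 to 3 higher and 0 to 84 lower. The lower count was 0 without Het replicate 1 or 3 or KO replicate 1 or 2. In P18 testis, 1223 were higher and 3192 lower; the higher count was 401 with no filter, 2473 as deposited and 2139 with voom, and without 1 library the counts were 87 to 1475 higher and 979 to 3022 lower. In spermatocytes, 2026 were higher and 4001 lower; the higher count was 1136 with no filter and 3986 as deposited, and without 1 library the counts were 667 to 1514 higher and 1843 to 3700 lower. Same-numbered KO and Het libraries had correlated deviations of −0.03 to 0.24, not all above 0.1, so that the numbers were not taken to pair them; with the replicate block the higher count was 0 at P14 and 547 in P18 testis. Counts of the 4 pathway lists also fell when 1 library was left out: RING-between-RING ligases lower in P18 testis came to 0 to 4, sphingolipid genes higher in spermatocytes to 0 to 5 and calcium handling genes lower in spermatocytes to 3 to 7. The causes were not tested.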
